A study of Mus musculus with 30 samples.

Results

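The 2 cell populations compared here were sorted from mouse bone marrow 10 days after a dose of 5-FU, a drug that is toxic to cells making DNA and empties the marrow of most cycling cells. The haematopoietic progenitor cells (HPCs) had the surface phenotype CD150+ CD48+ EPCR+ Lineage-, and the haematopoietic stem cells (HSCs) differed from it in lacking CD48 (CD150+ CD48- EPCR+ Lineage-). Both came from C57BL/6 mice aged 8 to 10 weeks, and both groups had received 5-FU, so neither stands for untreated marrow. Each group held 4 libraries of 100 cells, 8 of the 30 libraries of the series, and they were chosen by their labels alone. The other 22 libraries held HSCs of untreated mice, HSCs 6 or 10 days after 5-FU, and HSCs before or after culture for 1 day. The comparison asks what separates the CD48+ cells from the CD48- cells while marrow recovers from 5-FU. The labels do not say that the libraries came from separate mice, so p-values measure the spread between these libraries.

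HSCs can rebuild the whole blood system, and most of them rest outside the cell cycle in undisturbed marrow. In the mouse, cells with CD150 (Slamf1) and without CD48 are rich in HSCs, and cells with CD48 hold progenitors that divide more and have begun to express genes of single lineages. EPCR (Procr) marks HSCs, and the lineage gate removes mature blood cells. CD48 and CD150 both belong to the SLAM family of surface receptors, whose genes lie side by side.

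The CD48+ HPC libraries held 9115895 to 12243208 exon reads and the CD48- HSC libraries 7054789 to 10181010, with 14784 to 15214 and 14158 to 15406 genes detected. Levels are given as CPM, the read counts of a gene scaled to a library of common size by the TMM method, and a fold change is the log2 ratio of CD48+ HPCs over CD48- HSCs with its standard error (SE) from edgeR's quasi-likelihood test. A gene is called where its p-value, adjusted by the Benjamini-Hochberg method over the 12719 genes tested, is under 0.05. A level is a share of the reads of a library, so fewer cells with a transcript and less of it per cell cannot be told apart. Intron reads made up 64.2 ± 1.37% of reads on genes in CD48+ HPCs and 67.4 ± 1.36% in CD48- HSCs (SD, n = 4 each), with no overlap (two-sided exact permutation p = 0.0286, the smallest that 4 against 4 allows, adjusted p = 0.143 over 5 such values). The first principal component of the 2000 most variable genes held 47.7% of the variance and placed all CD48+ HPC libraries on one side (25.4 to 36.1) and all CD48- HSC libraries on the other (-39.3 to -23.7).

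A pair of libraries stood out for transcripts of other cells, though such transcripts were not confined to them. CD48- HSC replicate 3 had red cell transcripts: the beta-globin gene Hbb-bs was at 10.0, 5.45, 1.19 and 3.14 CPM in CD48+ HPC replicates 1 to 4, against 2.09, 5.28, 3506 and 0.549 CPM in CD48- HSC replicates 1 to 4. Hba-a1, an alpha-globin gene, was at 0.224 to 1.88 CPM in CD48+ HPCs and at 1620 CPM in CD48- HSC replicate 3, against 0 to 0.0978 CPM in the other CD48- HSCs. Slc4a1, the red cell anion exchanger, was at 393 CPM in that library and at most 0.297 CPM in the other libraries (Hba-a1 and Slc4a1 were chosen after their values were seen). CD48+ HPC replicate 3 had the most macrophage and MHC class II transcripts, as described further on with the lineage genes. Results that rest on either library are given with and without it.

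**Figure D1:**
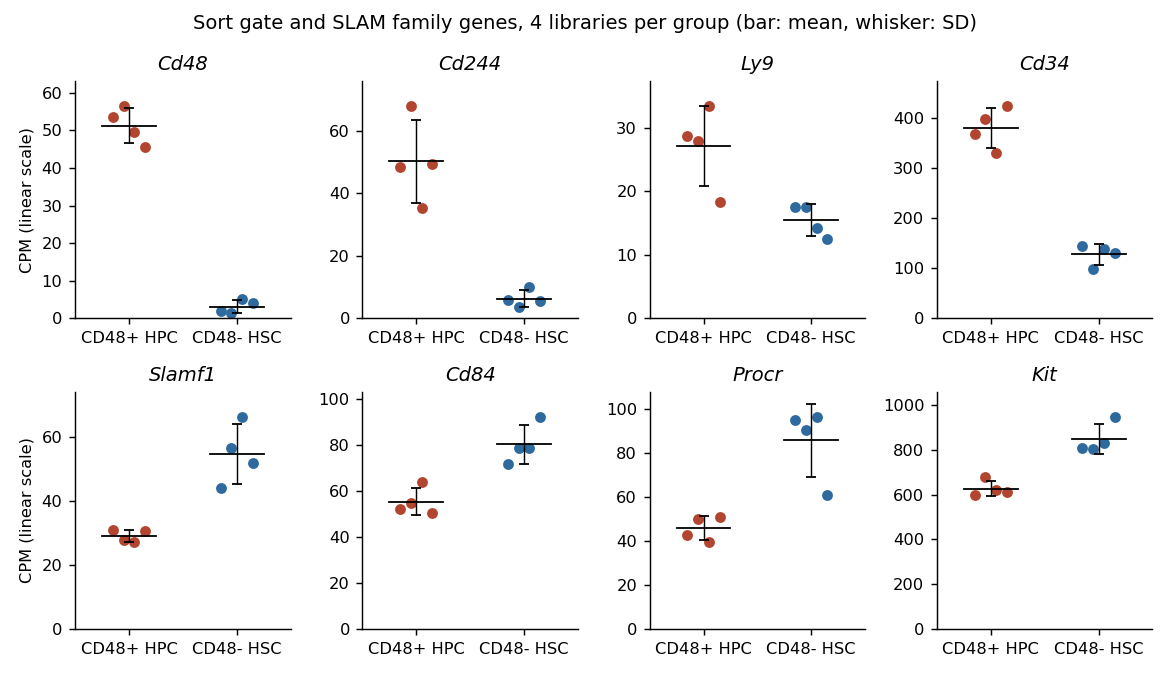
Levels (CPM, linear axes that start at 0) of 8 genes of the sort gate or the SLAM family in each library, with 4 CD48+ HPC libraries at the left and 4 CD48- HSC libraries at the right of each panel. Horizontal bars are means and whiskers are SD. Cd48, Cd244, Ly9 and Cd34 were higher in CD48+ HPCs, and Slamf1, Cd84, Procr and Kit were lower, with no overlap in any of the 8 panels.

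The gate itself was read first. Cd48 was at 53.5, 56.4, 49.6 and 45.7 CPM in CD48+ HPCs, against 1.86, 1.27, 5.10 and 3.98 CPM in CD48- HSCs. The lowest CD48+ library lay far above the highest CD48- one, a log2 change of 4.10 (SE 0.311, adjusted p = 2.34e-05), so the transcript follows the sort. Slamf1 (CD150) was at 30.9, 27.7, 27.2 and 30.7 CPM in CD48+ HPCs, against 44.0, 56.6, 66.3 and 51.9 CPM in CD48- HSCs. Both groups were sorted as CD150+, and their Slamf1 values did not overlap (log2 change -0.91, SE 0.133, adjusted p = 0.000861). Procr (EPCR), for which both groups were also sorted, was at 42.5, 49.8, 39.5 and 50.9 CPM in CD48+ HPCs, against 94.7, 90.5, 96.1 and 60.7 CPM in CD48- HSCs (log2 change -0.91, SE 0.151, adjusted p = 0.00169). Kit, the stem cell factor receptor, was also lower in CD48+ HPCs (log2 change -0.43, SE 0.081, adjusted p = 0.003), while Ly6a, which encodes Sca-1, was at 121 to 150 CPM in CD48+ HPCs and 116 to 179 CPM in CD48- HSCs and was not called (adjusted p = 0.175), although it passed without CD48- HSC replicate 2 (log2 change -0.38, adjusted p = 0.0247).

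Genes named here from the SLAM cluster on chromosome 1, Cd48 itself among them, differed in direction by position. In mm10 coordinates, these genes run from Cd244 (171558713 to 171585316) through Ly9 (171588613 to 171607410) and Cd48 (171681420 to 171705257) to Slamf1 (171767132 to 171801184) and Cd84 (171839697 to 171890718). Cd244 encodes a receptor that binds the CD48 protein. It was at 48.4, 67.7, 35.3 and 49.3 CPM in CD48+ HPCs, against 5.82, 3.52, 10.1 and 5.49 CPM in CD48- HSCs (log2 change 3.02, SE 0.289, adjusted p = 8.2e-05). The first 3 of these genes, Cd244, Ly9 and Cd48, were higher in CD48+ HPCs and the next 2, Slamf1 and Cd84, were lower, with log2 changes of 0.81 (SE 0.194, adjusted p = 0.011) for Ly9 and -0.53 (SE 0.111, adjusted p = 0.00542) for Cd84. Slamf7, between Ly9 and Cd48, was too low to be tested. Slamf7 was at 5.02, 1.52, 6.34 and 0.785 CPM in CD48+ HPCs, against 0, 0.0978, 0 and 0 CPM in CD48- HSCs. Ly9, Cd84 and Slamf7 were chosen after their values were seen.

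Of the 12719 genes tested, 3373 were called (26.5%). In CD48+ HPCs, 1781 of them were higher (14.0%) and 1592 lower (12.5%). The log2 change of all genes tested had a median of -0.011, and the calls had a median size of 0.646 on the log2 scale. A change of at least 2-fold was reached by 429 genes that were higher (3.37%) and 458 that were lower (3.60%). The lowest CD48+ HPC library lay above the highest CD48- HSC library in 1784 genes (14.0%), and the reverse held in 1674 genes (13.2%). CD48+ HPC replicate 1 carried the most weight in these counts, which were 1116 higher and 1023 lower without it, and 1246 and 1020 without both libraries numbered 3.

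**Figure D2:**
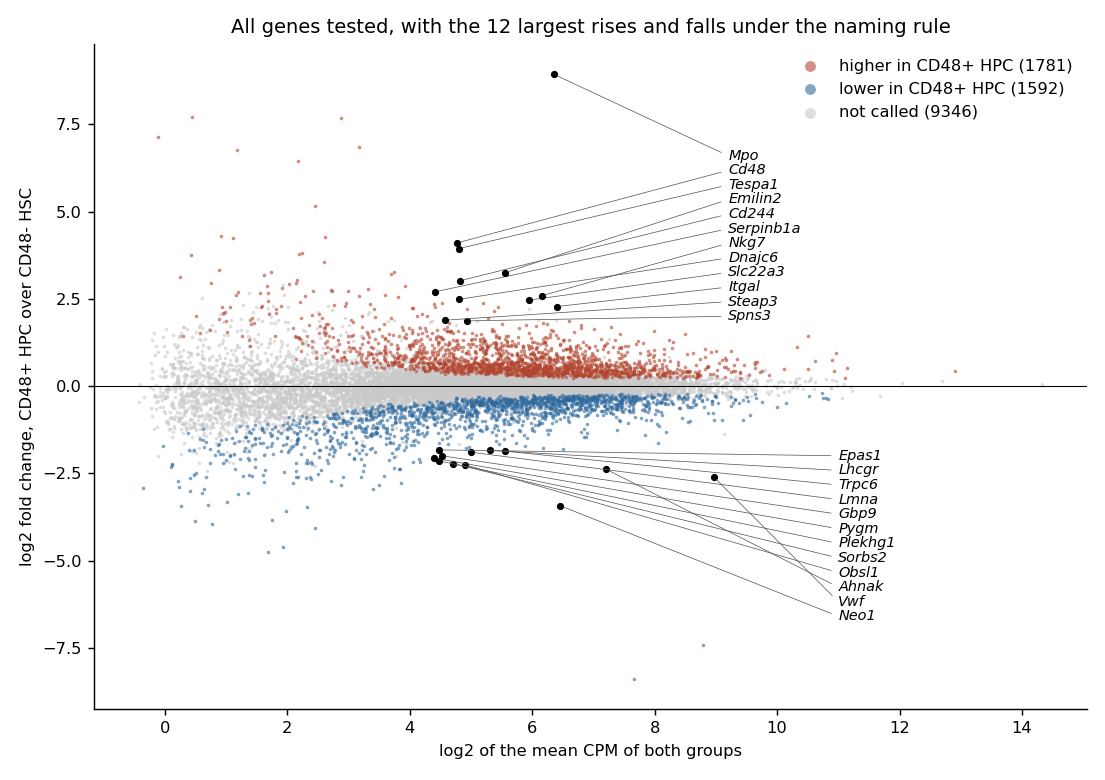
Log2 fold change of CD48+ HPCs over CD48- HSCs (y axis) against the log2 of the mean CPM of both groups (x axis) for the 12719 genes tested, 1 point a gene, red for higher, blue for lower and grey for not called. Labels mark the 12 largest rises, led by Mpo at 8.94 and Cd48 at 4.10, and the 12 largest falls, led by Neo1 at -3.43 and Vwf at -2.60, among called genes that did not overlap between groups and reached a mean log2 CPM of 5 in the higher group.

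Beside Mpo, Cd48 and Cd244, the 12 largest rises held 9 further genes, of which Tespa1, Nkg7 and Itgal had the smallest p. Tespa1, a thymocyte signalling protein, was at 58.7, 55.3, 43.8 and 51.6 CPM in CD48+ HPCs, against 2.21, 3.52, 3.44 and 4.53 CPM in CD48- HSCs (log2 change 3.94, SE 0.194, adjusted p = 1.41e-06). Nkg7, a granule protein known from natural killer and cytotoxic T cells, was at 131, 128, 111 and 119 CPM in CD48+ HPCs, against 20.2, 18.7, 17.3 and 25.3 CPM in CD48- HSCs (log2 change 2.59, SE 0.126, adjusted p = 1.41e-06). Itgal, the alpha chain of the leukocyte integrin LFA-1, was at 174, 143, 125 and 118 CPM in CD48+ HPCs, against 30.3, 29.0, 28.2 and 28.0 CPM in CD48- HSCs (log2 change 2.28, SE 0.127, adjusted p = 2.93e-06). For these 3 genes the lowest CD48+ HPC library lay far above the highest CD48- HSC library. Emilin2, an extracellular matrix glycoprotein, had a log2 change of 3.25, Serpinb1a, an inhibitor of neutrophil proteases, 2.70, Dnajc6, which uncoats clathrin vesicles, 2.48, Slc22a3, an organic cation transporter, 2.46, Steap3, a ferrireductase, 1.89, and Spns3, of the spinster transporter family, 1.87. Lack of overlap between the groups was a condition for naming the 12 largest rises and falls, so it is not a result about these genes.

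The largest falls were led by Neo1 and Vwf, both used to mark HSCs. Neo1, the netrin receptor neogenin, was at 14.5, 14.1, 19.5 and 11.4 CPM in CD48+ HPCs, against 136, 153, 218 and 135 CPM in CD48- HSCs. The groups lay far apart (log2 change -3.43, SE 0.196, adjusted p = 2.93e-06). Vwf, von Willebrand factor, which marks platelet-biased HSCs in the mouse, was at 147, 113, 145 and 160 CPM in CD48+ HPCs, against 661, 938, 814 and 1021 CPM in CD48- HSCs (log2 change -2.60, SE 0.149, adjusted p = 2.93e-06). Ahnak, a very large scaffold protein, was at 63.0, 41.1, 52.3 and 33.0 CPM in CD48+ HPCs, against 253, 202, 278 and 257 CPM in CD48- HSCs (log2 change -2.38, SE 0.181, adjusted p = 2.34e-05). The other falls were Obsl1 (-2.26), Sorbs2 (-2.22) and Pygm (-2.07), which encode a cytoskeletal adaptor, an actin-linked adaptor and muscle glycogen phosphorylase, Plekhg1 (-2.15), a guanine nucleotide exchange factor, the interferon-inducible GTPase Gbp9 (-1.999), the nuclear lamin gene Lmna (-1.90), the cation channel gene Trpc6 (-1.87), the luteinising hormone receptor gene Lhcgr (-1.84) and Epas1 (-1.83), a hypoxia-inducible factor. Gbp9 had a log2 change of -2.65 without CD48+ HPC replicate 3.

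**Figure D3:**
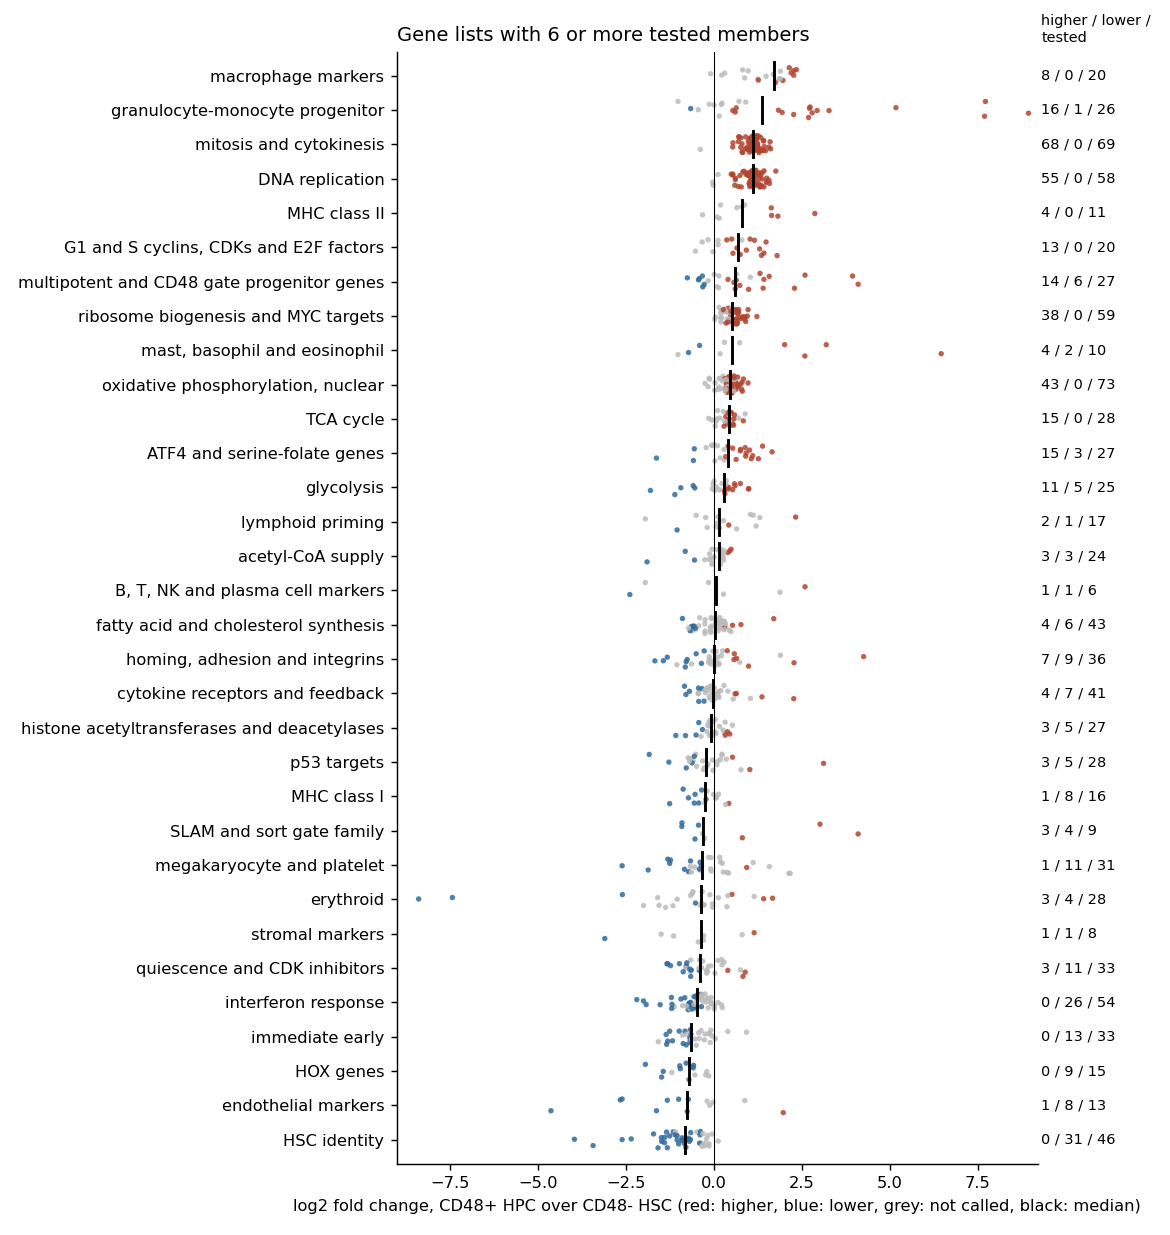
Log2 fold change of CD48+ HPCs over CD48- HSCs (x axis) for the tested members of each gene list with 6 or more of them (rows), 1 point a gene, red for higher, blue for lower and grey for not called, with black bars at the list medians. The numbers at the right count members higher, lower and tested. Mitosis (median 1.11) and DNA replication (1.10) moved to the right nearly whole, and HSC identity (-0.83) and HOX genes (-0.71) lay to the left.

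Genes of the cell cycle were higher in CD48+ HPCs almost without exception. Of 58 tested DNA replication genes 55 were higher and 0 lower (median log2 change 1.10), and of 69 tested mitosis and cytokinesis genes 68 were higher and 0 lower (median 1.11), against 14.0% higher and a median of -0.011 over all genes tested. Without both libraries numbered 3 the counts were 49 and 67. The DNA replication members not called were Orc3, Orc4 and Orc5, subunits of the origin recognition complex, at -0.03, -0.02 and 0.12 on the log2 scale, and the mitosis member not called was Pttg1, securin, at -0.39. Orc5 was named because it completes that count.

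Among replication genes, Mcm10, which helps to start the replicative helicase, was at 107, 86.1, 88.8 and 87.0 CPM in CD48+ HPCs, against 23.5, 36.0, 21.8 and 27.2 CPM in CD48- HSCs (log2 change 1.76, SE 0.155, adjusted p = 5.07e-05). Tyms, thymidylate synthase and the enzyme that 5-FU blocks, was at 102, 88.2, 92.8 and 93.6 CPM in CD48+ HPCs, against 36.4, 45.3, 32.3 and 46.8 CPM in CD48- HSCs (log2 change 1.23, SE 0.126, adjusted p = 0.000121). The lowest CD48+ value of each gene lay above the highest CD48- value. Cdc45, which travels with the helicase, and Rrm1 and Rrm2, the subunits of ribonucleotide reductase, had log2 changes of 1.57, 1.28 and 1.50. Among mitotic genes, Ube2c, the ubiquitin-conjugating enzyme of the anaphase-promoting complex, was at 173, 132, 154 and 157 CPM in CD48+ HPCs, against 74.1, 51.4, 39.3 and 43.4 CPM in CD48- HSCs (log2 change 1.56, SE 0.175, adjusted p = 0.000198). Ccnb1, cyclin B1, was at 76.8, 51.6, 85.7 and 62.4 CPM in CD48+ HPCs, against 29.6, 29.4, 20.9 and 22.7 CPM in CD48- HSCs (log2 change 1.43, SE 0.176, adjusted p = 0.000331). Mki67, which marks cells in cycle, was at 708, 668, 663 and 697 CPM in CD48+ HPCs, against 367, 441, 260 and 304 CPM in CD48- HSCs (log2 change 0.99, SE 0.139, adjusted p = 0.000652). The CD48+ HPC libraries lay close together in Mki67, and the CD48- HSC libraries were more spread and all lower.

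The promoters of these genes shared letters that the comparison did not use. The cell cycle homology region (CHR) and the CCAAT box are the elements through which the DREAM and MuvB complexes and NF-Y are known to act on mitotic genes, and E2F factors act on genes of DNA synthesis. Windows of 250 bases before to 50 bases after a RefSeq start (GRCm38.p6) were searched on both strands for TTTGAA (CHR), CCAAT and 3 forms of the E2F site. The E2F site was searched as TTTGGCG, with GG in its middle, as TTTCCCG, with CC there, and as TTTGCCG, with GC there. Matches of different letters may share bases at their ends, and the 3 E2F forms share their first 3 letters. The CHR letters stood in 48 of 62 promoters of 58 matched mitosis genes (77.4%), against 17.9% of all 32851 promoters, and the CCAAT box in 45 of them (72.6%), against 37.4%. Both stood in 39 (62.9%), against 6.95%. An E2F form stood in 23 of 60 promoters of 48 matched DNA replication genes (38.3%), against 5.98% of all promoters and 9.09% of those of genes tested. The promoters of 4 genes are printed to show where the letters lie, from 5′ to 3′ on the strand of the gene. Capitals mark CHR and CCAAT letters (or their reverse complement) in Ube2c (chr2:164769679-164769978, plus strand), Kif18b, a mitotic kinesin (chr11:102925075-102925374, minus strand), and Ttk, a spindle checkpoint kinase (chr9:83834439-83834738, plus strand), and the E2F letters in Mcm10 (chr2:5012742-5013041, minus strand).
Ube2c: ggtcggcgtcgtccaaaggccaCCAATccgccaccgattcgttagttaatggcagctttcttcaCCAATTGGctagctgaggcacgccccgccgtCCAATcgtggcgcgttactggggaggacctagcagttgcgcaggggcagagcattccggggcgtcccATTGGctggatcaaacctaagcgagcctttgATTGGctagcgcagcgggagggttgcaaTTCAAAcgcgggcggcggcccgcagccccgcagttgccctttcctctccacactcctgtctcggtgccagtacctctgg
Kif18b: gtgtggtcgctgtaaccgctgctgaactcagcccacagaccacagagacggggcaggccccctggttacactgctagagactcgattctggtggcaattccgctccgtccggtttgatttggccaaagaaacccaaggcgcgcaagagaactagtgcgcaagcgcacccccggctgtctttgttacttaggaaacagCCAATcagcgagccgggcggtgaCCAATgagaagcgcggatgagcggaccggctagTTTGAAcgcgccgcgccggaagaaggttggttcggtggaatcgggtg
Ttk: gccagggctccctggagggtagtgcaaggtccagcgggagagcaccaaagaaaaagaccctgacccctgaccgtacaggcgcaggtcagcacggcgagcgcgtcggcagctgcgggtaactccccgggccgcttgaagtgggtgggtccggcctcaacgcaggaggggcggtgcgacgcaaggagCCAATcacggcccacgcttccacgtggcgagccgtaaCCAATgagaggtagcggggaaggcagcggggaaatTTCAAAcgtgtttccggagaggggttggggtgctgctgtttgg
Mcm10: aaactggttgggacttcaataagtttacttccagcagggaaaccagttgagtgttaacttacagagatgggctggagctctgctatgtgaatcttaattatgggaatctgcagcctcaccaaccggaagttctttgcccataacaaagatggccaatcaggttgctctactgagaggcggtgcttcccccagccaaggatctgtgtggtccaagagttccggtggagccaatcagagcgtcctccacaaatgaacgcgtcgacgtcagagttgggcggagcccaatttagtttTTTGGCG

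Counted from the start site, the CHR letters of Ube2c begin at base -29 on the other strand, and the E2F letters of Mcm10 begin at base 43. A CCAAT box stands before the CHR letters in the Ube2c, Kif18b and Ttk promoters. Kif18b and Ttk had log2 changes of 1.27 and 1.33. A match describes letters only.

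Genes that drive entry into the cycle were higher in part. Of 20 tested G1 and S cyclins, CDKs and E2F factors, 13 were higher and 0 lower (65% higher, median 0.70). Over all genes tested 14.0% were higher. Cdk6, the D cyclin partner that sets how fast HSCs leave rest, was at 2243, 2119, 1928 and 2168 CPM in CD48+ HPCs, against 914, 605, 689 and 949 CPM in CD48- HSCs (log2 change 1.42, SE 0.135, adjusted p = 8.05e-05). Mybl2, which joins the MuvB complex on mitotic genes, had a log2 change of 1.80, E2f8 1.35, Ccne2, cyclin E2, 1.30, and E2f1 1.03. The D cyclin gene Ccnd1 was at 78.2 to 124 CPM in CD48+ HPCs and 57.2 to 142 CPM in CD48- HSCs (log2 change -0.03, adjusted p = 0.952), and Ccnd2 had a log2 change of -0.33 (adjusted p = 0.151). The groups overlapped for both D cyclins. Myc, a driver of growth, was at 253, 253, 168 and 253 CPM in CD48+ HPCs, against 120, 96.0, 79.0 and 78.8 CPM in CD48- HSCs (log2 change 1.31, SE 0.164, adjusted p = 0.000361). Its relative Mycn went the other way, at 170, 149, 118 and 163 CPM in CD48+ HPCs, against 303, 231, 242 and 236 CPM in CD48- HSCs (log2 change -0.75, SE 0.127, adjusted p = 0.00186).

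Of 33 tested genes of quiescence and CDK inhibition, 11 were lower, 3 higher and 19 not called (median -0.39). The shares were 33.3% lower and 9.09% higher, against 12.5% and 14.0% over all genes tested. Ndn, necdin, an imprinted growth suppressor, had a log2 change of -1.33, Fhl1, a LIM domain protein, -1.23, and Klf6, a zinc finger factor, -0.87. Txnip, which binds thioredoxin and limits glucose uptake, was at 336, 635, 450 and 449 CPM in CD48+ HPCs, against 875, 778, 1252 and 777 CPM in CD48- HSCs (log2 change -0.98, SE 0.195, adjusted p = 0.00441). Cdkn1c, the CDK inhibitor p57, was at 8.20, 7.60, 6.34 and 10.8 CPM in CD48+ HPCs, against 17.0, 11.1, 13.8 and 10.4 CPM in CD48- HSCs. It just missed the threshold (log2 change -0.67, SE 0.229, adjusted p = 0.0504) and passed without CD48- HSC replicate 2, CD48- HSC replicate 4 or CD48+ HPC replicate 4 (-0.74, -0.76 and -0.82). Among members that went against the majority, Rbl1, the pocket protein p107, had a log2 change of 0.83 and Tgfb1 0.89. The count of members lower was 7 without CD48+ HPC replicate 1, CD48- HSC replicate 1 or CD48- HSC replicate 3, and 8 without both libraries numbered 3.

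HSC identity genes were lower in CD48+ HPCs. Of 46 tested members 31 were lower and 0 higher (67.4% lower, median -0.83), against 12.5% lower over all genes tested, and 30 were lower without both libraries numbered 3. The summed level of the list was 7402 to 8599 CPM in CD48+ HPCs and 11826 to 12961 CPM in CD48- HSCs, with no overlap. Beside Neo1 and Vwf, Fgd5, an exchange factor used as an HSC reporter in the mouse, was at 110, 141, 129 and 124 CPM in CD48+ HPCs, against 324, 301, 352 and 355 CPM in CD48- HSCs (log2 change -1.40, SE 0.098, adjusted p = 1.75e-05). Ctnnal1, alpha-catulin, another such reporter, was at 20.2, 20.3, 20.4 and 23.8 CPM in CD48+ HPCs, against 59.9, 63.8, 67.3 and 63.2 CPM in CD48- HSCs (log2 change -1.59, SE 0.105, adjusted p = 1.13e-05). Neither gene overlapped between the groups.

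Among transcription and chromatin regulators known from HSCs, Mllt3, which sustains HSC self-renewal, was at 149, 186, 188 and 147 CPM in CD48+ HPCs, against 366, 318, 431 and 374 CPM in CD48- HSCs (log2 change -1.15, SE 0.119, adjusted p = 0.000124). Mecom, which encodes EVI1, was at 226, 226, 299 and 227 CPM in CD48+ HPCs, against 520, 452, 534 and 508 CPM in CD48- HSCs (log2 change -1.04, SE 0.108, adjusted p = 0.000126). Hlf was at 403, 662, 550 and 559 CPM in CD48+ HPCs, against 1006, 788, 1171 and 896 CPM in CD48- HSCs (log2 change -0.83, SE 0.152, adjusted p = 0.00288). For all 3 factors the groups did not overlap. Meis1 had a log2 change of -0.38 (SE 0.091, adjusted p = 0.0109), and Bmi1, a Polycomb gene of self-renewal, 0.12 (adjusted p = 0.572). Tie1, an endothelial-type receptor that HSCs share, had a log2 change of -0.999.

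Of 15 tested HOX genes 9 were lower and 0 higher (60% lower, median -0.71), against 12.5% lower over all genes tested. Hoxb5, whose reporter marks long-term HSCs in the mouse, was at 2.59, 7.24, 3.07 and 4.83 CPM in CD48+ HPCs, against 11.2, 13.3, 16.8 and 8.24 CPM in CD48- HSCs (log2 change -1.48, SE 0.343, adjusted p = 0.00922). Hoxb4, which expands HSCs when raised, was at 17.7, 26.9, 24.0 and 31.4 CPM in CD48+ HPCs, against 47.6, 37.2, 54.3 and 33.1 CPM in CD48- HSCs (log2 change -0.79, SE 0.196, adjusted p = 0.0131). Hoxa3 had a log2 change of -0.70, Hoxb3 -0.97 and Hoxb6 -1.44. The groups did not overlap in these 5 genes, but the calls of the low genes were fragile: Hoxb3 lost its call without CD48+ HPC replicate 1, CD48+ HPC replicate 4 or CD48- HSC replicate 3 (-0.80, -0.90 and -0.76), and Hoxb6 without CD48+ HPC replicate 1 (-1.38). The count of HOX genes lower was 3 without CD48+ HPC replicate 1, 4 without CD48- HSC replicate 3, 5 without CD48+ HPC replicate 4 or CD48- HSC replicate 2, and 1 without both libraries numbered 3.

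**Figure D4:**
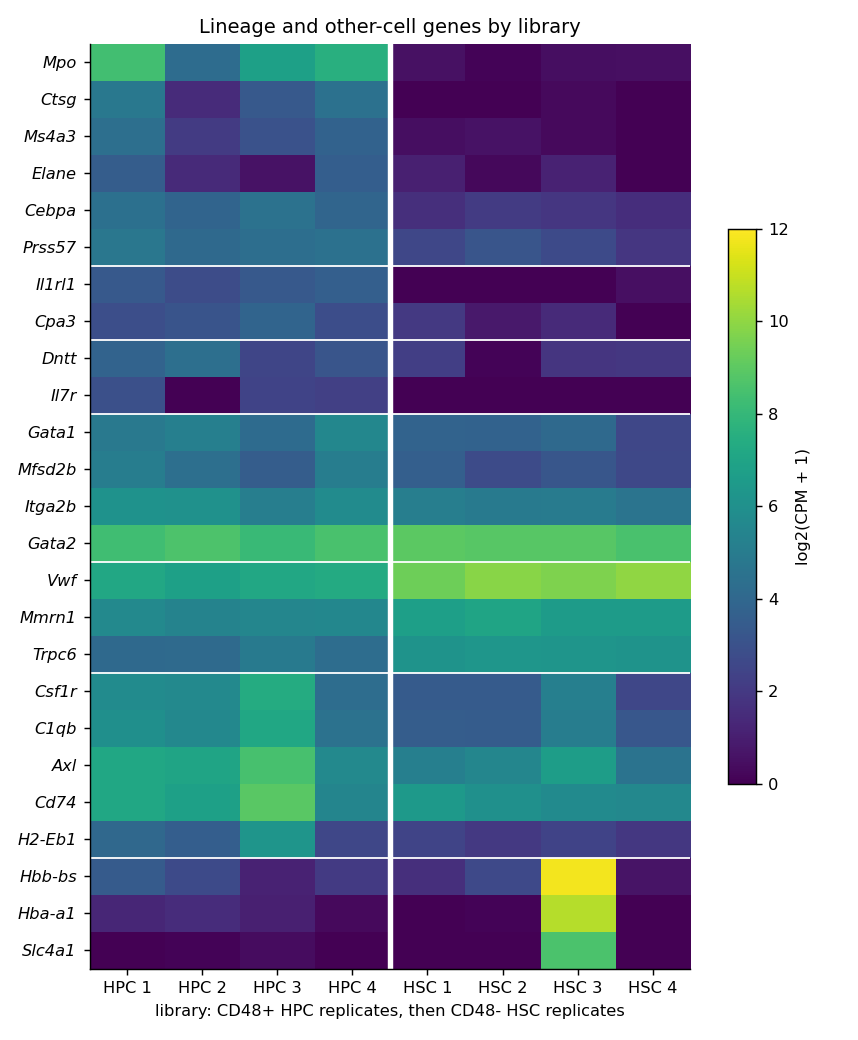
Level of 25 lineage and other-cell genes as log2(CPM + 1), shown by colour, in each library (columns, with 4 CD48+ HPC libraries at the left and 4 CD48- HSC libraries at the right). White lines part granule and myeloid, mast, lymphoid, erythroid and megakaryocyte progenitor, platelet and HSC, macrophage and MHC class II, and red cell genes. Mpo and Ctsg were seen in CD48+ HPCs at uneven levels, and the red cell genes in CD48- HSC replicate 3.

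Genes of granulocyte and monocyte progenitors were the most changed lineage group. Of 26 tested members 16 were higher and 1 lower (61.5% and 3.85%, median 1.37), against 14.0% and 12.5% over all genes tested. The list held 34 genes, and the filter on low counts keeps a gene that is read in 1 group alone. Mpo, Ctsg and Ms4a3, near 0 in CD48- HSCs, were tested through the CD48+ HPCs alone. The share higher and the median rest in part on such members. Without that filter the count higher was also 16. The count higher was 17 without both libraries numbered 3, and 12 without CD48- HSC replicate 1, 2 or 4. It was 13 with all 30 libraries in 1 fit and 11 against the day-10 HSCs of the 5-FU experiment. Mpo, myeloperoxidase of granules, was at 332, 18.1, 112 and 188 CPM in CD48+ HPCs, against 0.465, 0.0978, 0.356 and 0.412 CPM in CD48- HSCs. The CD48+ HPC libraries differed among themselves by over 10 times, and all lay far above every CD48- HSC library (log2 change 8.94, SE 1.029, adjusted p = 0.000217, and 8.32 without CD48+ HPC replicate 1). Ctsg, the granule protease cathepsin G, followed the same order of libraries, at 26.6, 1.79, 9.11 and 21.1 CPM in CD48+ HPCs, against 0, 0, 0.237 and 0 CPM in CD48- HSCs. It had 618 reads in CD48+ HPCs and 2 reads in CD48- HSCs, a 247-fold ratio with a counting interval of 68.0 to 2040 (95%, exact, counting error only). Ms4a3, a marker of granulocyte-monocyte progenitors, was at 19.7, 3.31, 7.13 and 12.7 CPM in CD48+ HPCs, against 0.349, 0.489, 0.237 and 0 CPM in CD48- HSCs (log2 change 5.17, SE 0.695, adjusted p = 0.000536). In these 3 genes CD48+ HPC replicate 1 was the highest and replicate 2 the lowest.

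Cebpa, the transcription factor that starts the granulocyte-monocyte programme, was far more even, at 20.8, 13.5, 21.7 and 13.9 CPM in CD48+ HPCs, against 2.09, 3.23, 2.73 and 1.92 CPM in CD48- HSCs (log2 change 2.79, SE 0.262, adjusted p = 7.8e-05). Prss57, a granule serine protease, had a log2 change of 1.94 (SE 0.280, adjusted p = 0.000792). Spi1 (PU.1), a factor of all myeloid cells, was at 77.9 to 93.6 CPM in CD48+ HPCs and 62.1 to 86.0 CPM in CD48- HSCs and was not called (adjusted p = 0.362). Elane, neutrophil elastase, was at 10.7, 1.70, 0.495 and 11.1 CPM in CD48+ HPCs, against 1.05, 0.196, 1.19 and 0 CPM in CD48- HSCs. Its groups overlapped, and its call (log2 change 3.27, adjusted p = 0.0312) was lost without CD48+ HPC replicate 1 or 4, or CD48- HSC replicate 1, 2 or 4 (2.80 to 3.66). The one member called lower, Gfi1, a repressor that acts in HSCs and neutrophil progenitors, was at 68.9 to 154 CPM in CD48+ HPCs and 138 to 225 CPM in CD48- HSCs (log2 change -0.66, adjusted p = 0.0475), and lost its call without any of CD48+ HPC replicates 1, 3 and 4 or CD48- HSC replicates 1 and 3 (-0.72 to -0.48).

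The PU.1 letters GAGGAAG, searched on both strands in the same promoter windows, stood in 17 of 34 promoters of 29 matched granulocyte-monocyte genes (50%), against 13.6% of all promoters. The promoters of Mpo (chr11:87793534-87793833, plus strand) and Ctsg (chr14:56102525-56102824, minus strand) are printed because these genes had the largest changes of the group, with the letters in capitals.
Mpo: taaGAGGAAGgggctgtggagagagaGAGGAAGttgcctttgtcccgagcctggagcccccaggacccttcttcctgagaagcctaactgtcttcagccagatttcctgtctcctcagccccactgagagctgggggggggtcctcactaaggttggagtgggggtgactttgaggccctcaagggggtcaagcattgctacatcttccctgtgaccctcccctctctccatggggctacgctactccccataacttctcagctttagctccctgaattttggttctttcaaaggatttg
Ctsg: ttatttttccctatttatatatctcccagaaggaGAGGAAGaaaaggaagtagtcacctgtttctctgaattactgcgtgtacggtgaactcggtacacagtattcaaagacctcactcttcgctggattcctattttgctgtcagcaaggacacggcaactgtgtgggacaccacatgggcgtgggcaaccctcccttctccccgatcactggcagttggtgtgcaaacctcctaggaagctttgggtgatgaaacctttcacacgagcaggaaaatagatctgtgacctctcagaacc

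The PU.1 letters of Mpo begin at bases -247 and -224 from the start site, and those of Ctsg at base -216.

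Of 15 neutrophil markers 3 could be tested, and their summed level of 357, 28.9, 123 and 208 CPM in CD48+ HPCs was mostly Mpo (332, 18.1, 112 and 188 CPM), against 7.56, 4.79, 10.1 and 9.75 CPM in CD48- HSCs. Markers of mature neutrophils were near 0 in both groups. Lcn2 was at 0.179 to 1.17 CPM in CD48+ HPCs and 0 CPM in CD48- HSCs, and S100a8 at 0.396 to 1.57 CPM in CD48+ HPCs and 0.116 to 0.686 CPM in CD48- HSCs, both too low to be tested. Macrophage markers were not. Their summed level over 23 genes was 1818, 1368, 3731 and 905 CPM in CD48+ HPCs, against 809, 891, 1581 and 771 CPM in CD48- HSCs, with the highest library of each group numbered 3. Of 20 tested members 8 were higher and 0 lower (40% higher, median 1.72), against 14.0% higher over all genes tested. Without both libraries numbered 3 the count higher was 12. The count was 15 without CD48- HSC replicate 3, 14 without CD48+ HPC replicate 4, 3 without CD48+ HPC replicate 1, 1 without CD48+ HPC replicate 3, and 2 without CD48- HSC replicate 1, 2 or 4. With a block for the replicate number it was 16, and the labels do not say what that number marks. Csf1r, the receptor for macrophage colony-stimulating factor, which is listed under both macrophages and granulocyte-monocyte progenitors, was at 53.5, 48.7, 165 and 18.9 CPM in CD48+ HPCs, against 9.89, 9.78, 34.8 and 4.94 CPM in CD48- HSCs. The groups overlapped (log2 change 2.27, adjusted p = 0.0258), and the call was lost without CD48+ HPC replicate 3 or CD48- HSC replicate 1, 2 or 4 (1.45 to 2.13), while the change was 3.11 without CD48- HSC replicate 3. C1qb, a complement chain made by macrophages, was at 62.7, 46.8, 141 and 21.7 CPM in CD48+ HPCs, against 10.5, 10.2, 32.5 and 8.51 CPM in CD48- HSCs (log2 change 2.14, adjusted p = 0.0149), 1.51 without CD48+ HPC replicate 3 and 2.80 without CD48- HSC replicate 3. In Csf1r and C1qb the replicate numbers fell in the same order in both groups. The part of macrophage RNA in the other results was not tested.

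MHC class II genes were highest in the same CD48+ HPC library as the macrophage markers, but not in the same CD48- HSC library. Their summed level was 456, 446, 1107 and 294 CPM in CD48+ HPCs, against 345, 280, 311 and 270 CPM in CD48- HSCs. Of 11 tested members 4 were higher and 0 lower (36.4% higher, median 0.80), against 14.0% higher over all genes tested. The count higher was 2 without CD48+ HPC replicate 1 or 3, without CD48- HSC replicate 2, 3 or 4, or without both libraries numbered 3. With unique exon reads 1 was higher. H2-Eb1, a class II beta chain, was at 15.8, 11.1, 74.5 and 4.94 CPM in CD48+ HPCs, against 4.42, 2.93, 4.27 and 2.88 CPM in CD48- HSCs (log2 change 2.87, adjusted p = 0.0127, and 1.55 without CD48+ HPC replicate 3). H2-Ab1 had a log2 change of 1.64, and 1.01 without that library. Cd74, the invariant chain, was at 142, 113, 482 and 43.0 CPM in CD48+ HPCs, against 87.7, 64.0, 51.8 and 47.9 CPM in CD48- HSCs. Its groups overlapped, and its call (log2 change 1.63, adjusted p = 0.0492) was lost when any library but CD48+ HPC replicate 2 or 4 was left out (0.66 to 1.84). H2 genes have near-identical copies and several entries in the annotation, so reads can be split among them.

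Mast cell and basophil genes were few and low. Il1rl1, the interleukin-33 receptor of mast cells and basophils, was at 9.29, 5.90, 9.11 and 11.3 CPM in CD48+ HPCs, against 0, 0, 0 and 0.412 CPM in CD48- HSCs. It had 370 reads in CD48+ HPCs and 3 reads in CD48- HSCs, a 98.5-fold ratio with a counting interval of 33.5 to 480. Cpa3, a mast cell protease that early progenitors also make, was at 6.28, 7.69, 13.4 and 6.06 CPM in CD48+ HPCs, against 3.03, 0.782, 1.66 and 0 CPM in CD48- HSCs (log2 change 2.58, SE 0.643, adjusted p = 0.013, and 3.31 without CD48- HSC replicate 1). Both genes separated the groups at low levels. Of 25 members of the list 10 could be tested, and 8 had no read in any of the 8 libraries. Il1rl1, near 0 in CD48- HSCs, was tested through the CD48+ HPCs alone. Of the 10 tested 4 were higher (2 without CD48+ HPC replicate 3) and 2 lower, 40% and 20%, against 14.0% and 12.5% over all genes tested. Those lower were Mitf (-0.72, adjusted p = 0.00461) and Gata2, a factor of HSCs and mast cells, at 283 to 401 CPM in CD48+ HPCs and 372 to 509 CPM in CD48- HSCs (log2 change -0.41, adjusted p = 0.0351), which lost its call without any single library but CD48+ HPC replicate 2 and CD48- HSC replicate 4 (-0.44 to -0.32).

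Megakaryocyte and platelet genes were lower more often than higher. Of 31 tested members 11 were lower and 1 higher (median -0.35), against 12.5% lower and 14.0% higher over all genes tested. Gata1, the factor of red cell, megakaryocyte and mast cell progenitors, was at 27.5, 34.7, 17.5 and 46.3 CPM in CD48+ HPCs, against 13.1, 12.8, 16.1 and 4.81 CPM in CD48- HSCs (log2 change 1.42, SE 0.344, adjusted p = 0.0116). Itga2b (CD41), of megakaryocytes and early progenitors, was at 68.5, 65.4, 34.0 and 55.1 CPM in CD48+ HPCs, against 34.1, 28.4, 30.6 and 23.6 CPM in CD48- HSCs (log2 change 0.93, SE 0.202, adjusted p = 0.00672). In both genes CD48+ HPC replicate 3 was the lowest of its group, just above the highest CD48- HSC library in Gata1 and just below it in Itga2b. Mmrn1, multimerin of platelet granules, was at 48.4, 40.7, 44.0 and 45.7 CPM in CD48+ HPCs, against 107, 127, 95.5 and 95.4 CPM in CD48- HSCs (log2 change -1.25, SE 0.114, adjusted p = 6.01e-05). Selp, P-selectin, was at 228 to 327 CPM in CD48+ HPCs and 255 to 311 CPM in CD48- HSCs (log2 change -0.08, adjusted p = 0.661), and Pf4, platelet factor 4, was under 10 CPM in all 8 libraries and not called (adjusted p = 0.232).

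Of 28 tested erythroid genes 3 were higher and 4 lower (10.7% and 14.3%, median -0.37), near the 14.0% and 12.5% over all genes tested. These counts rested on CD48- HSC replicate 3. Without it 9 were higher and 1 lower, the same counts as without both libraries numbered 3. The count lower was 10 with all 30 libraries in 1 fit and 7 without the filter on low counts, and it was also 1 without CD48+ HPC replicate 1 and 2 without CD48+ HPC replicate 2 or 3. Hbb-bs was called lower (log2 change -7.43, adjusted p = 0.0317) with all libraries, and its log2 change was 0.88 without CD48- HSC replicate 3 (adjusted p = 0.437). The call was also lost without any CD48+ HPC library (-8.04 to -7.11). Hba-a1 turned round, with a log2 change of -8.38 with all libraries and 4.55 (adjusted p = 0.0191) without CD48- HSC replicate 3, and it also lost its call without CD48+ HPC replicate 3 or 4 (-8.34 and -8.09). Klf1, the master factor of red cells, was at 8.20, 14.0, 0.792 and 15.8 CPM in CD48+ HPCs, against 0.233, 0.782, 16.4 and 0.137 CPM in CD48- HSCs. It was not called with all libraries (log2 change 1.15, adjusted p = 0.473) and was higher without CD48- HSC replicate 3 (4.52, adjusted p = 0.00843). Mfsd2b, a sphingosine-1-phosphate transporter of red cells and platelets, was higher, with a slight overlap (log2 change 1.67, SE 0.363, adjusted p = 0.00694), Car2, carbonic anhydrase 2, was lower (log2 change -0.52, SE 0.101, adjusted p = 0.00384), and Epor, the erythropoietin receptor, was not called (log2 change -0.03, adjusted p = 0.943).

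Of 17 tested lymphoid priming genes 2 were higher and 1 lower (11.8% and 5.88%, median 0.16), against 14.0% and 12.5% over all genes tested. Without the filter on low counts 8 were higher, and with all 30 libraries in 1 fit 5 were. The counts with single libraries left out were 1 higher without CD48+ HPC replicate 1, 4 higher without CD48- HSC replicate 2, 3 or 4, and 2 lower without CD48+ HPC replicate 2, CD48+ HPC replicate 4 or CD48- HSC replicate 4. Dntt, terminal transferase, was at 13.1, 19.7, 4.75 and 7.85 CPM in CD48+ HPCs, against 3.61, 0.0978, 2.61 and 2.88 CPM in CD48- HSCs (log2 change 2.32, SE 0.641, adjusted p = 0.0209), and lost its call without CD48+ HPC replicate 1 or 2 (2.25 and 1.91). Il7r, the interleukin-7 receptor of lymphoid progenitors, was too low to be tested, at 6.53, 0, 4.26 and 3.82 CPM in CD48+ HPCs, against 0 CPM in all CD48- HSCs. Pooled over libraries, its 155 reads in CD48+ HPCs lay at least 41.3-fold above a floor of 3 reads over the CD48- HSCs. That bound covers counting error only and not the spread between libraries. CD48+ HPC replicate 2 had 0 reads, as did every CD48- HSC library, so the groups overlapped. Flt3, a receptor of multipotent and lymphoid progenitors, was at 32.8 to 88.8 CPM in CD48+ HPCs and 7.92 to 48.2 CPM in CD48- HSCs and was not called (log2 change 1.04, adjusted p = 0.101). Ltb, lymphotoxin beta, was lower (log2 change -1.04, SE 0.143, adjusted p = 0.00058). Cd34, a marker of progenitors that most resting mouse HSCs lack, was at 368, 398, 331 and 423 CPM in CD48+ HPCs, against 145, 98.5, 138 and 130 CPM in CD48- HSCs (log2 change 1.57, SE 0.127, adjusted p = 3.54e-05).

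Genes for growth were higher by small steps. Of 59 tested ribosome biogenesis and MYC target genes 38 were higher and 0 lower (median 0.52), of 73 nuclear oxidative phosphorylation genes 43 and 0 (0.45), of 28 TCA cycle genes 15 and 0 (0.42), and of 27 ATF4 and serine-folate genes 15 and 3 (0.40). In that order, the shares higher were 64.4%, 58.9%, 53.6% and 55.6%, against 14.0% over all genes tested. Srm, spermidine synthase, was at 262, 176, 191 and 203 CPM in CD48+ HPCs, against 82.5, 95.8, 51.2 and 127 CPM in CD48- HSCs (log2 change 1.22, SE 0.225, adjusted p = 0.0029). Cad, which starts pyrimidine synthesis, was at 633, 439, 468 and 540 CPM in CD48+ HPCs, against 265, 309, 188 and 313 CPM in CD48- HSCs (log2 change 0.95, SE 0.163, adjusted p = 0.00196). Mthfd2, a mitochondrial folate enzyme, was at 28.6, 21.3, 29.4 and 30.1 CPM in CD48+ HPCs, against 6.05, 13.7, 7.95 and 6.73 CPM in CD48- HSCs (log2 change 1.65, SE 0.246, adjusted p = 0.000959). The groups did not overlap for any of the 3. Fbl, fibrillarin of the nucleolus, had a log2 change of 0.89, Psat1 of serine synthesis 0.92, Cox5a of respiratory complex IV 0.79 and Ndufa2 of complex I 0.69. Trib3, a pseudokinase induced by ATF4, went the other way (log2 change -1.63, SE 0.196, adjusted p = 0.000282), as did Xbp1 (-0.58, adjusted p = 0.00909), a factor of the unfolded protein response.

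The counts of these small changes depended on single libraries. Without CD48+ HPC replicate 1 the members higher were 22 for ribosome biogenesis, 21 for oxidative phosphorylation and 8 for the TCA cycle. Without CD48- HSC replicate 1 they were 24, 26 and 10, without CD48- HSC replicate 3 they were 30, 26 and 8, without CD48+ HPC replicate 4 they were 30, 26 and 8, and without both libraries numbered 3 they were 24, 26 and 6. CD48+ HPC replicate 1 had the most exon reads of the 8 libraries and the highest values of Srm and Cad.

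Of 25 tested glycolysis genes 11 were higher and 5 lower (44% and 20%, median 0.30), against 14.0% and 12.5% over all genes tested. Without CD48+ HPC replicate 1 or 4 the count higher was 7. Pgam1, phosphoglycerate mutase, was at 353, 286, 316 and 308 CPM in CD48+ HPCs, against 169, 172, 128 and 166 CPM in CD48- HSCs (log2 change 0.99, SE 0.110, adjusted p = 0.000174). Slc16a1, the lactate transporter MCT1, had a log2 change of 0.98 and Gapdh 0.59. Ldhb, the B chain of lactate dehydrogenase, was at 34.0, 34.6, 32.7 and 38.9 CPM in CD48+ HPCs, against 65.2, 71.2, 66.3 and 65.8 CPM in CD48- HSCs (log2 change -0.94, SE 0.097, adjusted p = 0.000126), and Slc2a3, the glucose transporter GLUT3, had a log2 change of -0.59 (adjusted p = 0.00168). The groups did not overlap for Pgam1 or Ldhb.

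Acetyl-CoA supply genes were called about as often as all genes tested. Of 24 tested 3 were higher and 3 lower (12.5% and 12.5%, median 0.14), near the 14.0% and 12.5% over all genes tested. Acly, ATP-citrate lyase, which makes acetyl-CoA in the cytosol, was at 316, 262, 283 and 262 CPM in CD48+ HPCs, against 242, 263, 206 and 248 CPM in CD48- HSCs (log2 change 0.23, SE 0.099, adjusted p = 0.109). Of the kinases that switch off pyruvate dehydrogenase, Pdk4 and Pdk2 were lower, and Pdk1 and Pdk3, named after their values were seen, were not called (log2 changes -0.26 and -0.05, adjusted p = 0.0591 and 0.74). Pdk4 was at 1.92, 2.32, 4.36 and 2.81 CPM in CD48+ HPCs, against 10.0, 8.02, 12.7 and 11.8 CPM in CD48- HSCs (log2 change -1.90, SE 0.303, adjusted p = 0.00137), and Pdk2 had a log2 change of -0.81 (adjusted p = 0.006). Acss2, which makes acetyl-CoA from acetate, had a log2 change of -0.55 (adjusted p = 0.0141), while Cs, citrate synthase, and Idh2 had 0.45 and 0.49. Of 43 fatty acid and cholesterol synthesis genes 4 were higher and 6 lower (9.3% and 14%, median 0.04), also near the shares over all genes tested. Among them were Ebp, of sterol synthesis (0.77), Fads2 (-0.60) and Fads1 (-0.52), which desaturate fatty acids, and Sc5d (-0.67). The count higher was 2 without CD48+ HPC replicate 1 or CD48- HSC replicate 1. Of 27 histone acetyltransferases and deacetylases 3 were higher and 5 lower (11.1% and 18.5%, median -0.07), again near those shares. Hdac11 was at -1.08 (adjusted p = 0.00242) and Hdac3 at 0.45 (adjusted p = 0.00884). In this list 5 were higher without CD48- HSC replicate 2, and 3 lower without CD48+ HPC replicate 1, CD48+ HPC replicate 4 or CD48- HSC replicate 1.

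Interferon response genes were lower in CD48+ HPCs. Of 54 tested 26 were lower and 0 higher (48.1% lower, median -0.49), against 12.5% lower over all genes tested. Without both libraries numbered 3 the count lower was 31. The count was 4 with all 30 libraries in 1 fit, 16 without CD48+ HPC replicate 1 or 4, and 13 without CD48- HSC replicate 1. Gbp7, a guanylate-binding protein, was at 127, 145, 170 and 140 CPM in CD48+ HPCs, against 228, 213, 254 and 252 CPM in CD48- HSCs (log2 change -0.70, SE 0.104, adjusted p = 0.000926). The groups did not overlap, and CD48+ HPC replicate 3 was the highest of its group. Gbp2 and Gbp3 had log2 changes of -0.93 and -0.67, and Bst2, tetherin, 0.24 (adjusted p = 0.22). Of 16 tested MHC class I and antigen processing genes 8 were lower and 1 higher (50% and 6.25%, median -0.24), against 12.5% and 14.0% over all genes tested. The count lower was 5 with all 30 libraries in 1 fit and 4 with unique exon reads. Nlrc5, the activator of class I genes, was at 295, 274, 309 and 311 CPM in CD48+ HPCs, against 474, 430, 408 and 437 CPM in CD48- HSCs (log2 change -0.56, SE 0.081, adjusted p = 0.000838), and H2-Q7 and H2-K1 had log2 changes of -0.87 and -0.35, within the limits given for H2 copies. Psmb8, an immunoproteasome subunit, was the one called higher (0.42, adjusted p = 0.00886).

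Of 33 tested immediate early genes 13 were lower and 0 higher (39.4% lower, median -0.65), against 12.5% lower over all genes tested. The count lower was 4 with all 30 libraries in 1 fit and 6 against the day-10 HSCs of the 5-FU experiment. Egr1, which holds HSCs at rest in the mouse, was at 86.4, 223, 157 and 203 CPM in CD48+ HPCs, against 429, 357, 602 and 272 CPM in CD48- HSCs (log2 change -1.31, SE 0.285, adjusted p = 0.00693). Klf2 had a log2 change of -1.18, and the MAP kinase phosphatases Dusp2 and Dusp1 -0.82 and -0.67. Socs3 and Egr2, the members with the smallest p among those that pointed the other way, were not called (0.40 and 0.93, adjusted p = 0.269 and 0.244). Of 28 p53 targets 3 were higher and 5 lower (10.7% and 17.9%, median -0.23), near the 14.0% and 12.5% over all genes tested. The count higher was 1 without CD48+ HPC replicate 1 or CD48- HSC replicate 1. The count lower was 2, 3 and 9 without CD48+ HPC replicate 1, CD48+ HPC replicate 3 and CD48- HSC replicate 2. Sesn1, a stress sensor, had a log2 change of -0.62 (adjusted p = 0.00147) and Eda2r, the ectodysplasin A2 receptor, -1.84 (adjusted p = 0.00796), while Gtse1, which is itself a G2 and mitotic gene, had 1.02 (adjusted p = 0.000147).

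Endothelial-type genes, many of which HSCs also express, were lower, 8 of 13 tested with 1 higher (median -0.76). The shares were 61.5% lower and 7.69% higher, against 12.5% and 14.0% over all genes tested. The count lower was 8 whichever library was left out, and the one called higher, Stab2, a scavenger receptor of sinusoids, lost its call without CD48+ HPC replicate 1 or 3, or CD48- HSC replicate 1, 2 or 4. Robo4, a guidance receptor that anchors HSCs in marrow, was at 41.3, 82.0, 64.3 and 67.1 CPM in CD48+ HPCs, against 182, 128, 181 and 144 CPM in CD48- HSCs (log2 change -1.32, SE 0.187, adjusted p = 0.000713). Esam, a junction protein used to sort HSCs, had a log2 change of -0.76 and Sox18 -1.63. Of 41 tested cytokine receptors and their feedback genes 4 were higher and 7 lower (9.76% and 17.1%, median -0.03), near the 14.0% and 12.5% over all genes tested, with 2 higher without CD48+ HPC replicate 3 and 4 lower without CD48+ HPC replicate 4. Csf3r, the G-CSF receptor, was at 368, 466, 370 and 399 CPM in CD48+ HPCs, against 323, 195, 298 and 237 CPM in CD48- HSCs (log2 change 0.61, SE 0.148, adjusted p = 0.0118), and Socs2, a feedback inhibitor known from HSCs, had a log2 change of -0.79 (adjusted p = 0.00381). Of 36 tested homing and adhesion genes 7 were higher and 9 lower (19.4% and 25%, median 0.01), against 14.0% and 12.5% over all genes tested. Among them Itga3 was at -1.43, Jam2 at -1.68 and Itgal at 2.28. The T, B and NK marker list had 6 tested members. Of these Nkg7 was higher, and Klrb1c, which encodes NK1.1, was at 3.17 to 5.69 CPM in CD48+ HPCs and 12.4 to 47.3 CPM in CD48- HSCs (log2 change -2.39, SE 0.390, adjusted p = 0.00154). Of the 20 list members 7 had no read in any of the 8 libraries. Among 8 tested stromal markers Pdgfrb was higher (1.15, adjusted p = 0.0195, and not called without CD48+ HPC replicate 2, at 0.91) and Pdgfra lower (-3.10, adjusted p = 0.0147, and -3.86 without CD48+ HPC replicate 4). Cxcl12, a stromal chemokine, was at 84.2 CPM in CD48- HSC replicate 4 and at 0.237 to 20.6 CPM in the other 7 libraries. It was not called with all libraries (log2 change -1.50, adjusted p = 0.426) and had a log2 change of 3.15 without that library (adjusted p = 0.0288).

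**Figure D5:**
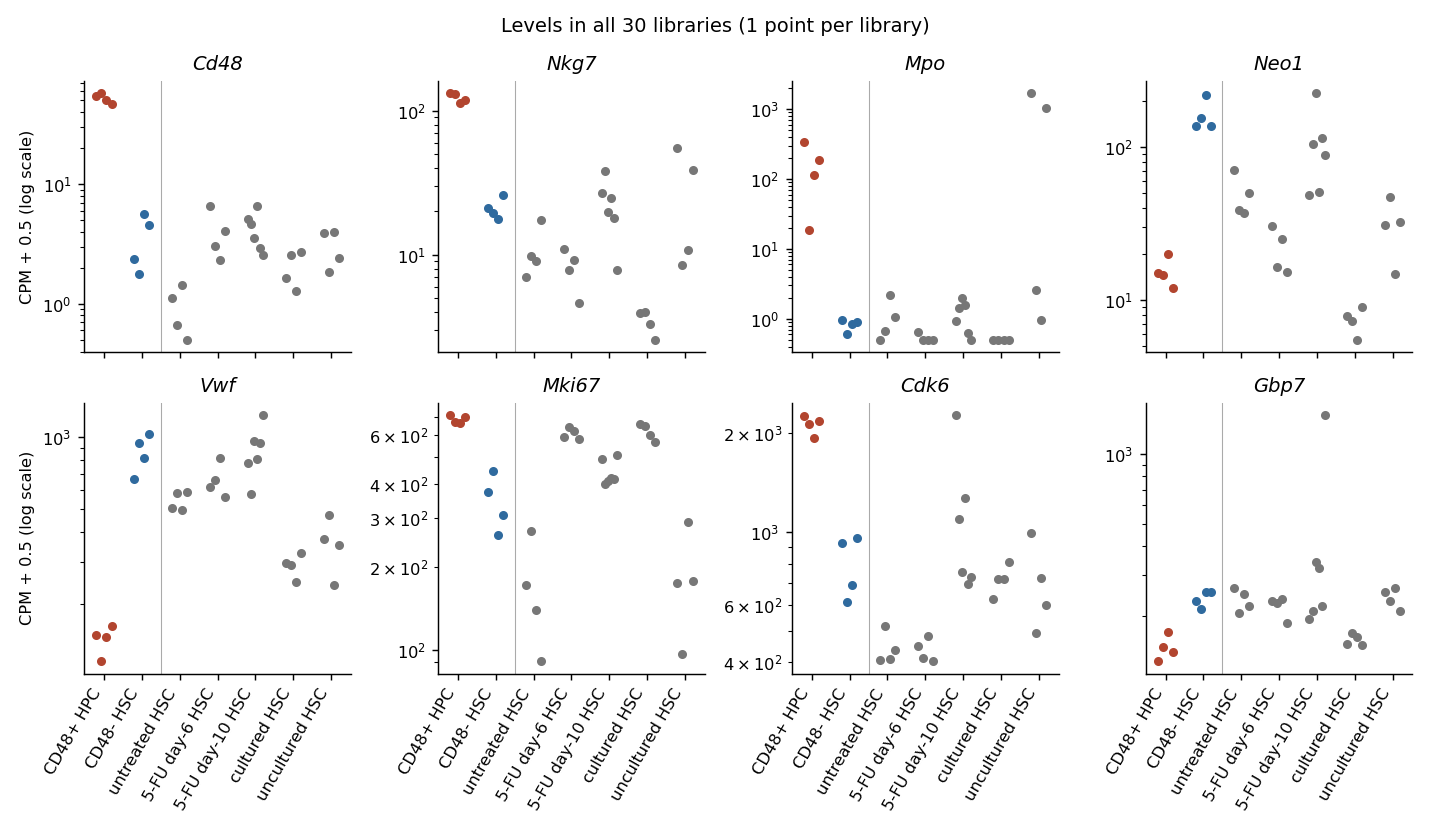
Level of 8 genes (CPM + 0.5, log axes) in all 30 libraries, 1 point a library, with CD48+ HPCs and CD48- HSCs at the left of the line and the groups of the other experiments at its right. In Cd48 and Nkg7 the CD48+ HPCs lie above all other libraries, and in Vwf below them.

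Set beside the HSCs of the other experiments, with all 30 libraries scaled together, CD48+ HPCs lay outside the range of the HSC groups for some genes and inside it for others. Cd48 averaged 51.5 ± 4.75 CPM in CD48+ HPCs (SD, n = 4), against group means of 0.428 to 3.72 CPM in the 6 HSC groups. Vwf averaged 142 ± 19.8 CPM in CD48+ HPCs, against 866 ± 158 CPM in CD48- HSCs and 290 to 887 CPM over the other HSC groups. Mki67 averaged 687 ± 21.8 CPM in CD48+ HPCs, 609 ± 27.1 CPM in day-6 HSCs and 618 ± 43.4 CPM in cultured HSCs, against 346 ± 80.4 CPM in CD48- HSCs and 167 ± 75.5 CPM in untreated HSCs. Neo1 averaged 14.9 ± 3.37 CPM in CD48+ HPCs and 162 ± 38.6 CPM in CD48- HSCs, with 105 ± 64.6 CPM in day-10 HSCs of the 5-FU experiment, 49.0 ± 15.7 CPM in untreated HSCs, 21.4 ± 7.29 CPM in day-6 HSCs and 6.96 ± 1.49 CPM in cultured HSCs. In Neo1 the libraries of CD48+ HPCs (11.5 to 19.6 CPM) and of day-6 HSCs (14.9 to 30.2 CPM) overlapped. Cdk6 averaged 2122 ± 135 CPM in CD48+ HPCs, against 796 ± 172 CPM in CD48- HSCs and 436 to 1134 CPM in the other groups, but 1 day-10 HSC library of the 5-FU experiment, at 2271 CPM, lay above all CD48+ HPC libraries (1933 to 2251 CPM). Mpo was also high outside the CD48+ HPCs, and in 4 uncultured HSC libraries it was at 1676, 2.08, 0.450 and 1025 CPM. These levels are a description, since the experiments differ in more than their groups.

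With the 6 day-10 HSC libraries of the 5-FU experiment in place of the CD48- HSCs, 1274 genes were higher and 1233 lower in CD48+ HPCs. Mitosis genes had 60 members higher, DNA replication genes 39 and HSC identity genes 30 lower, whereas ribosome biogenesis genes had 5 higher, oxidative phosphorylation genes 19 and HOX genes 3 lower. Fewer members were also higher among G1 and S cyclins, CDKs and E2F factors (7), ATF4 and serine-folate genes (7), glycolysis genes (4), TCA cycle genes (3) and MHC class II genes (0), and 4 quiescence genes were lower. The batch of the experiments and the choice of control cannot be told apart in these counts.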

How the data were processed

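The authors deposited read counts per gene, and total exon reads were used. Per the labels' protocols, cDNA was made from total RNA of 100 sorted cells and libraries with the Nextera XT kit. The build is mm10, per the submitters' processing notes. Aligner and counter: not given in the sources used here. Entries of the same gene were summed (48737 entries, 46113 genes, 1931 genes with several entries). The 8 libraries were fitted with edgeR 4.0.16 in R 4.3.3 (filterByExpr, TMM, quasi-likelihood test, group as the only term), which left 12719 genes, and Benjamini-Hochberg adjustment ran over all of them. The SE is the log2 change divided by the square root of F. On simulated data over the same 12719 genes, 67, 67 and 66 genes were changed 1.5, 2 and 4-fold. Of these 38.8%, 61.2% and 93.9% were called, and 5.84% of calls were false. A far smaller share of genes was changed there than was called here (26.5%). The adjusted p depends on that share, so these values do not give the recovery in this comparison. Single values per library were compared with two-sided exact permutation tests in SciPy 1.17.1, and figures were drawn with matplotlib 3.10.9. Promoters were RefSeq sequences of GRCm38.p6, and 97.1% of gene IDs were found in the RefSeq gene table.

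The comparison and the 33 gene lists (1004 genes, 1002 found) were chosen with earlier results of these data known. Named genes were the 12 largest rises and 12 largest falls that were called, did not overlap and reached a mean log2 CPM of 5 in the higher group, then from each list up to 5 members with the smallest p, up to 2 more against the majority and the highest markers of other cells, and a set of key genes. Genes outside these rules are marked in the text, and some genes under them are not reported here. Alternatives were DESeq2 1.42.0, its size factors, no filter, unique exon reads, entries as deposited, a block for the replicate number, 1 fit of all 30 libraries, the day-10 HSCs of the 5-FU experiment in place of the CD48- HSCs, and each library left out. Leaving out both libraries numbered 3 was added after seeing the data. Counting intervals and floors cover counting error only.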

Additional observations from a re-analysis of the deposited data

Results flagged for a closer look

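Within a group of 4 libraries, a single library stood far from the other 3 (a gap above Dixon's 95% critical value) in 33 of 328 groups of values. The critical value gives about 1 in 20 groups by chance only for normally distributed values. These values were CPM, and some groups had reads in 1 library alone, so that rate cannot be set against the count. No cause was tested for any of them.

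CD48- HSC replicate 3 stood alone for red cell genes, at 3506 CPM for Hbb-bs, 1620 CPM for Hba-a1, 393 CPM for Slc4a1 and 16.4 CPM for Klf1, and for the macrophage genes Csf1r at 34.8 CPM and C1qb at 32.5 CPM. The same library was also highest for Hoxb3 at 79.0 CPM, Itga3 at 31.3 CPM, Jam2 at 26.6 CPM and Ctsg at 0.237 CPM, and lowest for Pgam1 at 128 CPM.

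CD48+ HPC replicate 3 stood alone for H2-Eb1 at 74.5 CPM, H2-Ab1 at 127 CPM, Mecom at 299 CPM and Ly6a at 150 CPM, all high, and for Myc at 168 CPM, low.

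CD48+ HPC replicate 1 was high for Emilin2 at 134 CPM, Mcm10 at 107 CPM and Cxcl12 at 20.6 CPM, and low for Hdac11 at 13.2 CPM and Dusp1 at 85.3 CPM. CD48+ HPC replicate 2 was high for Pdgfrb at 32.8 CPM and low for Mthfd2 at 21.3 CPM. CD48+ HPC replicate 4 was high for Ctnnal1 at 23.8 CPM and Obsl1 at 12.7 CPM.

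CD48- HSC replicate 1 was high for Mycn at 303 CPM and low for Fads1 at 105 CPM. CD48- HSC replicate 2 held the only reads of Slamf7 in its group, at 0.0978 CPM. CD48- HSC replicate 4 was high for Cxcl12 at 84.2 CPM and Il1rl1 at 0.412 CPM, and low for Procr at 60.7 CPM, Spi1 at 62.1 CPM and Gbp3 at 35.1 CPM.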

How the results depend on the processing

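With single libraries left out, genes higher numbered 1116 to 1845 and genes lower 1023 to 1651, and interferon genes lower 13 to 32, oxidative phosphorylation genes higher 21 to 46, ribosome biogenesis genes higher 22 to 43 and HOX genes lower 3 to 9. Against the day-10 HSCs of the 5-FU experiment, 254 genes were at least 2-fold higher, and the counts were 19 for oxidative phosphorylation, 5 for ribosome biogenesis and 3 for HOX genes. Without both libraries numbered 3, 1020 genes were lower, and the counts were 26, 24 and 1. Interferon genes lower numbered 4 with all 30 libraries in 1 fit, and HOX genes lower 3 with unique exon reads. The counts of mitosis, DNA replication and granulocyte-monocyte genes higher and of HSC identity genes lower stayed within 1.5 times under all alternatives run. The cause of these differences was not tested. Direction turned for Hbb-bs (-8.04 to 0.88 with single libraries left out, 1.199 without both libraries numbered 3), Hba-a1 (-8.80 to 4.55 with single libraries left out) and Cxcl12 (-2.81 to 3.15), and against the day-10 HSCs of the 5-FU experiment for Gfi1 (0.061), Cd74 (-0.78) and Psmb8 (-0.011). The labels do not say whether equal replicate numbers share a mouse or a day. Same-numbered libraries had correlations of deviations of -0.133, -0.0796, 0.135 and -0.036, which cannot settle whether the numbers mark pairs. With the number as a block 1464 genes were higher, 1193 lower, 5 HOX genes lower and 16 macrophage markers higher.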

Other observations

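Gene families picked by symbol after their values were seen gave further groups that the report does not describe. Over all genes tested 14.0% were higher and 12.5% lower. Of 58 tested replication-dependent histone genes 28 were higher in CD48+ HPCs and 0 lower (median log2 change 1.29). Hist1h1b, a linker histone, was at 268, 260, 182 and 238 CPM in CD48+ HPCs, against 66.7, 112, 63.0 and 53.4 CPM in CD48- HSCs (log2 change 1.68, SE 0.209, edgeR adjusted p = 0.000349). Its groups did not overlap. Histone copies are near-identical, so reads can be split among them. Of 20 tested nucleoporin genes 19 were higher and 0 lower (median 0.53), led by Nup85, which was at 126, 102, 95.6 and 109 CPM in CD48+ HPCs, against 52.6, 59.9, 39.7 and 51.9 CPM in CD48- HSCs (log2 change 1.08). Of 39 tested proteasome genes 23 were higher and 0 lower (median 0.41), and of 9 CCT chaperonin genes 7 and 0 (median 0.53). By contrast, 3 of 78 cytosolic ribosomal protein genes were higher and 0 lower (median 0.08), below the 14.0% higher over all genes tested.

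GIMAP GTPases, small GTPases of lymphocyte survival that lie together on chromosome 6, were lower in CD48+ HPCs in 6 of 8 tested members (median -0.91). Over all genes tested 12.5% were lower. Gimap6 was at 100, 127, 124 and 110 CPM in CD48+ HPCs, against 240, 205, 253 and 225 CPM in CD48- HSCs (log2 change -1.002, SE 0.102, edgeR adjusted p = 0.000119), with no overlap. Of 12 tested ephrins and Eph receptors 5 were lower and 0 higher (median -0.40), to be read against the same 12.5%. Efna1 was at 0.753, 1.16, 1.19 and 1.91 CPM in CD48+ HPCs, against 5.24, 7.53, 10.8 and 6.59 CPM in CD48- HSCs (log2 change -2.60, SE 0.374, edgeR adjusted p = 0.000791). All of its levels were low, with no overlap.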
